A study of Rattus norvegicus with 12 samples.

Results

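The genes described here are the 202 genes of rat kidney that the deposited gene table marks with the biotype lncRNA (long noncoding RNA) and whose mean scaled count over the 12 libraries was at least 100. They were chosen on that measured mean, so their level is a description and not a result. They are 202 of 1767 genes of that biotype with reads, in a table of 20455 genes with reads, of which 18318 have the biotype protein_coding. The mean scaled count of the members ran from 100.4 to 188204 with a median of 349. Just inside the limit of 100 were ENSRNOG00000065623, ENSRNOG00000070335 and ENSRNOG00000069313 with means of 100.4, 101 and 102, and just outside it were ENSRNOG00000063359, ENSRNOG00000069919 and ENSRNOG00000066880 with means of 99.9, 99.1 and 99.0.

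Long noncoding RNAs are transcripts made by RNA polymerase II without a long open reading frame, and they are known for acting in the nucleus on chromatin and on genes close by, for holding nuclear bodies together, and for hosting microRNAs and small nucleolar RNAs. Many are kept at low levels by the nuclear exosome and by nonsense-mediated decay. Annotated long noncoding genes also include transcripts that start back to back with a coding gene, run antisense to one, or lie just past its 3' end.

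The study profiled rat kidney by RNA sequencing in a model of acute kidney injury after cardiopulmonary bypass (CPB), in which blood is pumped and oxygenated outside the body. The 3 groups of 4 libraries were sham, CPB, and CPB with nitrite, labelled CPB+Nitrite; nitrite is a salt that tissues can reduce to nitric oxide. Strain, sex, age, nitrite dose and route, time of sampling and the part of the kidney are not given in the sources used here, and neither is whether libraries of a group came from separate animals, so p-values measure the spread between these libraries. Total counts per library ran from 16.8 to 25.8 times 1e6. Levels of genes below are CPM, the counts of a gene per 1e6 counts of the library, after TMM scaling. There 1 CPM stood for 16.8 to 25.8 reads before that scaling. Sums of markers, here and below, are CPM of the library total without TMM scaling, so the 2 units differ. The sum of 10 tubule markers was 11004 to 14823 CPM by library in sham; the CPB libraries spanned 6777 to 9983 and those of CPB+Nitrite 5899 to 12269, and no tubule marker was at 0 in all 12 libraries. In whole tissue, fewer cells of a type and less RNA per cell cannot be told apart. CPB+Nitrite 2 stood apart in the sums of red cell markers, 4283 CPM against 308 to 1806 in the other 11 libraries, and of endothelial markers, 723 against 62.4 to 223. Its podocyte marker sum was 869 against 168 to 456. Sham 1 stood apart in the sums of mesenchymal markers, 601 against 31.7 to 219, of urothelial markers, 175 against 0.522 to 108, and of adipocyte markers, 280 against 16.3 to 138. The urothelial 108 was that of CPB+Nitrite 1, with sham 2 next at 32.5. The adipocyte 138 was that of CPB+Nitrite 2, with sham 2 next at 89.6. In CPB against sham the median log2 changes of the mesenchymal, urothelial and adipocyte lists were -2.01, -4.15 and -3.95. The test called 4 of 6, 2 of 5 and 2 of 5 of their genes lower. The part of these lists in the members' changes was not tested.

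Not all members are noncoding by name. RefSeq names 44 of the 202, by symbol (42), gene ID (1) or synonym (1). Of these, 32 carry the name of a gene that RefSeq lists as protein-coding, 11 the name of a RefSeq long noncoding RNA, and 1 that of a transcribed pseudogene. A further 8 members have a symbol that RefSeq does not list and 150 have no symbol. The protein-coding names include Gpx3, the plasma glutathione peroxidase that kidney tubules secrete, Selenow, another selenoprotein, Atp5mc1, a c subunit of ATP synthase, and Mafk, a small MAF partner of NRF2. A search by symbol found none of 67 symbols of well-known long noncoding RNAs (snoRNA hosts, nuclear and architectural, imprinted, X-linked and microRNA host transcripts) among the members, and 2 of them, Tug1 and H19, in the table under the biotype protein_coding. Such a search misses genes without a symbol or under another name, as it did Carmn, a microRNA host that the files name LOC120098113. The set is therefore named here by its biotype, and the 170 members without a coding name are also given on their own.

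Members took 1.05% to 1.67% of all reads by library. Gpx3 alone took 0.551% to 1.13%, and the other 201 took 0.564% ± 0.0142 in sham, 0.523% ± 0.0281 in CPB and 0.548% ± 0.0126 in CPB+Nitrite (SD, n = 4 each).

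On the mRatBN7.2 build no gene of the lncRNA biotype overlapped the body of a protein-coding gene of the table. Of the 170 members without a coding name, 102 (60.0%) lay downstream of their nearest protein-coding gene on the same strand, with a median gap of 1173.5 bases, 48 of them within 1000 and 91 within 5000 bases. Another 29 lay upstream on the same strand, 23 were divergent (start to start on opposite strands) and 16 convergent (end to end). Among the 1565 genes of the biotype below the limit, 20.2% lay downstream on the same strand and 36.6% were divergent. Most members without a coding name thus sat past the 3' end of a coding gene; the difference from the weaker genes was not tested. Whether the downstream members are transcripts of their own or ends of the coding transcript was not tested.

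**Figure D1:**
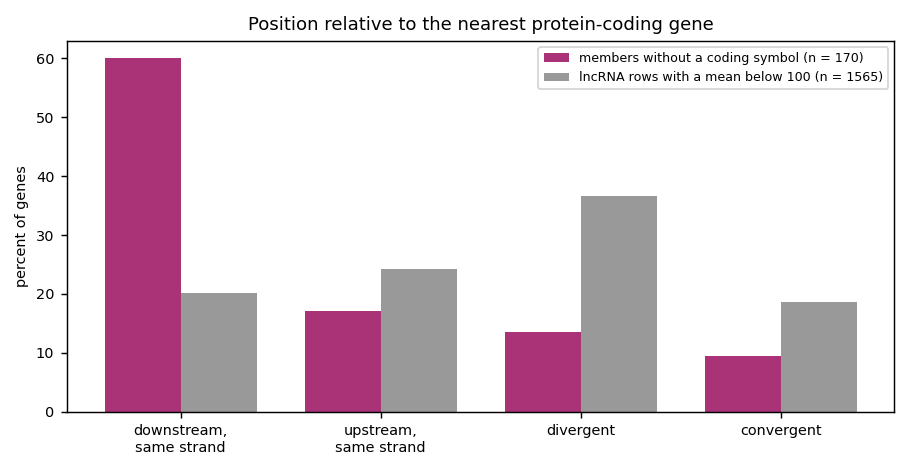
Position relative to the nearest protein-coding gene, as percent of genes (vertical axis), for the 170 members without a coding name and the 1565 genes of the biotype with a mean below 100. Downstream on the same strand holds 60.0% of the members and 20.2% of the others.

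Promoters of 38 members were in the RefSeq table of the GRCr8 build, as windows of 300 bases around the gene start. Most of these 38 are members with a coding name, and most members have no promoter there. The motif counts thus do not describe the promoters of the whole set. The motifs of 5 transcription factor families were searched on both strands. The E-box CACGTG, bound by MYC, USF and clock proteins, was in 7 of the 38, against 6.42% of 33469 promoters. The AP-1 site TGANTCA was in 2 (7.33% of all), the heat-shock element core GAANNTTC in 1 (8.59%), the interferon-stimulated response element in 1 (3.92%) and the NF-kappaB site in 0 (1.53%). Of 14 promoters of members that were higher in CPB than in sham 3 held the E-box, and of 8 of members that were lower 4 did. A match is a description of these letters and not a bound site. All 7 members with an E-box changed, 3 upward and 4 downward. Of all 38 members with a promoter 14 were higher and 8 lower, and of all genes tested 43.2% were called. A link between the motif and the change was not tested. The promoters of the 4 with the largest log2 changes in either direction are printed: Nupr1, Mafk and LOC102547700, which rose, and Carmn (LOC120098113 in the files), which fell. The other 3 were LOC100911253, Atp5mc1 and Sumo3, with log2 changes of -1.28, -0.44 and -0.44. Of the 7, Nupr1, Mafk, Atp5mc1 and Sumo3 carry a coding name. Capitals mark the E-box, and each runs 5' to 3' on the gene's strand, which is the minus strand for all 4. They lie at chr1:190645852-190646151 (Nupr1), chr12:19959143-19959442 (Mafk), chr14:85622736-85623035 (LOC102547700) and chr18:57389063-57389362 (Carmn).
Nupr1: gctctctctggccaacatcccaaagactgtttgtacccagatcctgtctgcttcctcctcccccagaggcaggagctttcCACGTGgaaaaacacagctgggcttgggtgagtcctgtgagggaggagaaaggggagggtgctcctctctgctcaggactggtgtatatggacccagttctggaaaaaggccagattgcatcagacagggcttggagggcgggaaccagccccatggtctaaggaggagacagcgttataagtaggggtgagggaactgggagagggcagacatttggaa
Mafk: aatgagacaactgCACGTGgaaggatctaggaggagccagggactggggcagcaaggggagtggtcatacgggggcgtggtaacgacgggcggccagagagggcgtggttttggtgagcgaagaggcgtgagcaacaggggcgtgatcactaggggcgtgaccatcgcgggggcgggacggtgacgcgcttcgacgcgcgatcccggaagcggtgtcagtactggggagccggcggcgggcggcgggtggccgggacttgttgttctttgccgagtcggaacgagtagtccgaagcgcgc
LOC102547700: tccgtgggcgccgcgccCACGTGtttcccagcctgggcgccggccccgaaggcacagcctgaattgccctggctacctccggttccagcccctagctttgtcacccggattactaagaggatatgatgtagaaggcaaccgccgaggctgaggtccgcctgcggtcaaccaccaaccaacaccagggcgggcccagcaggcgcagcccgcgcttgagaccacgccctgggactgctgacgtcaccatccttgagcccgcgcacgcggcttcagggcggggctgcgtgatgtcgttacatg
Carmn: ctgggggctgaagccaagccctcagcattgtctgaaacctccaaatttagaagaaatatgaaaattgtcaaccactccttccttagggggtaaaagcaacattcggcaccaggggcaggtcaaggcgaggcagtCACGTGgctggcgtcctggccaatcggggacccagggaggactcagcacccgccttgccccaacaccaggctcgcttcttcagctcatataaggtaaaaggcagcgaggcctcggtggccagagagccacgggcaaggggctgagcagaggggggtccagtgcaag

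CPB against sham asks whether bypass changed these genes. All 202 members could be tested. With edgeR (quasi-likelihood, p adjusted by Benjamini-Hochberg over 14664 genes), 55 members were higher and 33 lower in CPB, 88 in all (43.6%), against 43.2% of all genes tested. Of these, 27 rose and 21 fell by over 2-fold. The groups of 4 did not overlap for 63 members higher and 33 lower (47.5%), against 48.2% of all genes. The share of members that changed was thus close to that of all genes. Among all genes with a mean of at least 100, 46.0% were called and 51.4% did not overlap. The median log2 change of the members was 0.20, against -0.05 for all genes tested and 0.05 for genes with a mean of at least 100. For all 567 genes of the lncRNA biotype tested, members included, the median was -0.23. Of these 567, 86 were higher and 111 lower (34.7% called), so the members do not stand for the whole biotype. Scaling by library totals alone gave 36 members higher and 44 lower, and it moved the median of all genes from -0.05 to -0.24, so the split between directions depends on the scaling. Mean scaled counts below 100 were found for 20 members in sham, 12 in CPB and 8 in CPB+Nitrite: such members entered through the groups in which they are high. That was so for 6 of the 12 leading increases, with a sham mean below 100, and 6 of the 12 leading decreases, with a CPB mean below 100. Among the 167 with a mean of at least 100 in every group, 64 passed the test, 40 higher and 24 lower. This limit leaves out members that were low in any group, and so favours small changes. The 43.6% of all members and the 43.2% of all genes tested had no such limit, so the shares cannot be compared.

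**Figure D2:**
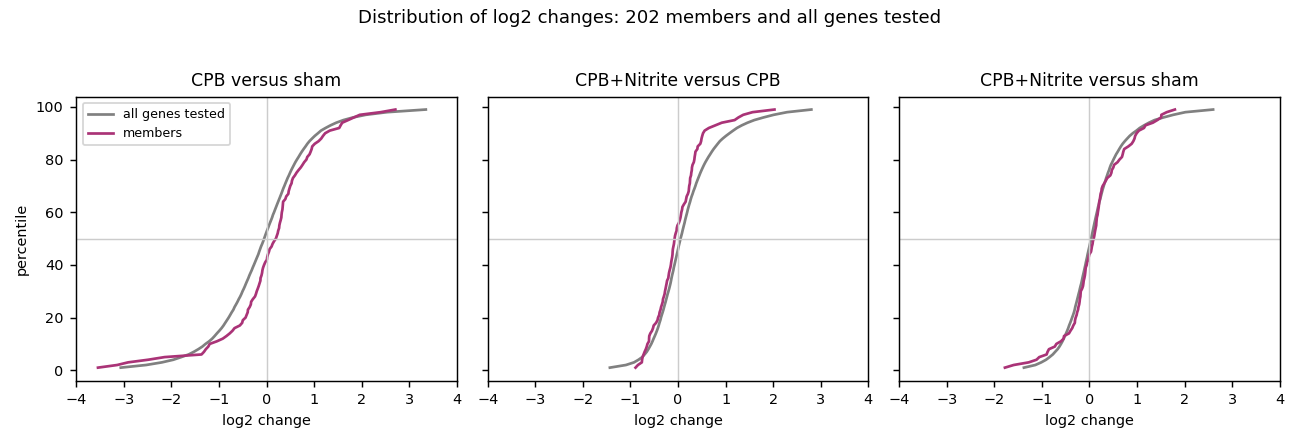
Percentile (vertical axis) of the log2 change (horizontal axis) for the 202 members and for all genes tested, in each comparison. In CPB against sham the members' curve lies to the right of that of all genes at the middle (medians 0.20 and -0.05).

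By name class, 15 of the 32 members with a coding name passed (46.9%), 12 higher and 3 lower. Without one 73 of the 170 passed (42.9%), 43 higher and 30 lower. Of the 150 without any symbol 57 passed, 33 higher and 24 lower, a share below the 43.2% of all genes tested. Of the 11 members that RefSeq lists as long noncoding RNA, 10 passed (90.9%), 5 in each direction. By position among the 170, 37 of 102 downstream members passed (36.3%), 25 higher and 12 lower. So did 10 of 23 divergent members (43.5%), 2 higher and 8 lower. Of 29 upstream members 16 passed (55.2%), 9 higher and 7 lower. Of 16 convergent members 10 passed (62.5%), 7 higher and 3 lower. Among all genes with a mean of at least 100, 46.0% were called. Some of these classes hold few members, and differences between the shares were not tested.

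Leading members were picked among those that passed and whose sham and CPB groups do not overlap. Their lack of overlap in CPB against sham is thus part of the choice and not a further result. Among the 12 leading increases 3 members carry a coding name, Nupr1, Gng2 and Tcim. Nupr1 (Nupr1l1 in the files, chr1:181212858-181215530), a chromatin-binding regulator induced by cell stress, stood at 14.6, 28.4, 42.7 and 15.1 CPM in sham, 85.5, 87.6, 141 and 117 in CPB and 62.7, 163, 61.9 and 62.5 in CPB+Nitrite. Every CPB and CPB+Nitrite library was above every sham library, and CPB+Nitrite 2 was highest of all. The log2 change in CPB was 2.09 ± 0.41 (SE; edgeR adjusted p = 0.00263). Gng2, a gamma subunit of heterotrimeric G proteins (chr15:4316059-4417183), was at 2.79, 4.95, 2.98 and 4.30 CPM in sham and 8.45, 14.6, 14.3 and 17.1 in CPB, with no overlap (1.86 ± 0.37, SE; edgeR adjusted p = 0.0028). Tcim, the transcriptional and immune response regulator (chr16:67593410-67597581), was at 32.4, 30.3, 90.0 and 31.1 CPM in sham and 149, 139, 196 and 117 in CPB (1.71 ± 0.40, SE; edgeR adjusted p = 0.0058). Sham 3 held 90.0 CPM of it while the other 3 held 30.3 to 32.4.

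The transcribed pseudogene Hsp90aa1-ps17 (chr5:138131975-138133310) was at 2.57, 2.74, 4.70 and 1.21 CPM in sham and 12, 14, 27.0 and 20.9 in CPB, with no overlap (log2 change 2.71 ± 0.50, SE; edgeR adjusted p = 0.00207). It is a near copy of Hsp90aa1, the inducible cytosolic HSP90 chaperone, and estimated counts can split reads between copies, so its value is uncertain. Hsp90aa1 itself had a mean of 621 ± 194 CPM in sham against 2865 ± 1268 in CPB (SD, n = 4), a log2 change of 2.21 ± 0.60 (SE; edgeR adjusted p = 0.0123). The copy stood at 0.283% to 0.529% of it in sham and 0.550% to 0.931% in CPB.

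The RefSeq long noncoding RNAs split evenly. Higher in CPB were LOC102547700 (chr14:81405769-81408785), at 2.72, 1.77, 3.80 and 2.42 CPM in sham and 12.6, 13.0, 8.78 and 7.50 in CPB, and LOC100909928 (chr4:162636187-162675008), at 21.0, 15.5, 22.9 and 14.6 in sham and 56.1, 69.2, 60.7 and 75.3 in CPB. Neither overlapped. Their log2 changes were 1.96 ± 0.48 and 1.82 ± 0.23 (SE; edgeR adjusted p = 0.00719 and 0.000968). LOC100909928 ends 8488 bases from the end of Clec2g, a C-type lectin-like gene, which rose by 1.27. The other 3 that rose were LOC100912041, divergent from the amino-acid transporter heavy chain Slc3a2 at 274 bases (1.22, neighbour 0.98), LOC120102992 (0.97), convergent with Trnau1ap at 59 bases, and LOC120098269 (0.93), convergent with Epb41l4a at 77 bases. These 3, and the last 3 of the next paragraph, are named as the remaining called members of this class, after their values were seen.

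Lower in CPB was Carmn, the smooth muscle and pericyte long noncoding RNA and host of a microRNA cluster. It stood at 19.4, 6.88, 3.39 and 5.46 CPM in sham, 1.22, 2.05, 1.42 and 0.804 in CPB and 2.45, 4.58, 4.56 and 4.80 in CPB+Nitrite (chr18:55095230-55118825). The CPB libraries were all below the sham libraries, sham 1 was far above the rest, and the log2 change was -2.67 ± 0.51 (SE; edgeR adjusted p = 0.00247), or -1.92 without sham 1. The mesenchymal marker sum was 601 CPM in sham 1, 79.6 to 175 in the other sham libraries, 31.7 to 96.1 in CPB, then 152 to 219 with nitrite, with none of its 6 genes at 0 in all 12 libraries and 4 of the 6 lower in CPB by the same test. These sums are without TMM scaling, unlike the CPM of Carmn, and their part in the Carmn result was not tested. LOC102549328 (chr4:118400299-118416639) was at 9.12, 9.29, 10.6 and 10.7 CPM in sham and 2.45, 1.40, 1.19 and 1.94 in CPB (-2.50 ± 0.43, SE; edgeR adjusted p = 0.00155), while its neighbour Dusp11, an RNA phosphatase 15118 bases away, rose by 0.95. LOC100911253, LOC120100687 and Lnc134 fell by 1.28, 1.06 and 0.87, and LOC120100687 starts 20 bases from Smn1, the survival motor neuron gene, on the other strand, which rose by 1.01.

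Members without a symbol made up 6 of the 12 leading increases. The highest change was that of ENSRNOG00000063720 (chr6:44003036-44007070), 1270 bases past the end of Sox11, a transcription factor of development and tissue repair. It was at 1.08, 0.764, 2.66 and 1.74 CPM in sham, 18.3, 15.5, 7.02 and 19.2 in CPB and 10.5, 0.733, 1.37 and 7.25 in CPB+Nitrite. Sham and CPB did not overlap, and CPB+Nitrite spanned both. The log2 change was 3.26 ± 0.74 (SE; edgeR adjusted p = 0.0051), against 3.33 for Sox11. ENSRNOG00000062350 (chr10:67893374-67895180), 265 bases past Slfn5, a Schlafen gene induced by interferon, was at 48.3, 47.4, 58.4 and 43.9 CPM in sham and 135, 175, 169 and 172 in CPB, with no overlap (1.72 ± 0.31, SE; edgeR adjusted p = 0.00207; Slfn5 1.72). ENSRNOG00000063339 (chr6:118462021-118464640), past the forkhead repressor Foxn3, held 4.5 to 4.88 CPM in sham and 13.1 to 15.2 in CPB (1.59 ± 0.27, SE; Foxn3 1.62), and ENSRNOG00000069152 (chr12:9352241-9353979), past the zinc finger gene Zfp655, held 5.47 to 7.40 and 19.2 to 26.9 (1.84 ± 0.33, SE; Zfp655 1.47).

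The 2 other unnamed members in the leading group were upstream of their neighbour. ENSRNOG00000062622 (chr2:55436170-55465279) lies 49421 bases from Dab2, an endocytic adaptor of the proximal tubule, and held 2.37 to 3.39 CPM in sham, 14.1 to 16.4 in CPB and 26.4, 3.59, 3.48 and 6.22 in CPB+Nitrite. Its log2 change in CPB was 2.44 ± 0.56 (SE; edgeR adjusted p = 0.00549), and that of Dab2 1.06. ENSRNOG00000067729 (chr7:67733989-67753442) lies 1903 bases from Snx31, a sorting nexin, and held 0.764 to 1.96 CPM in sham and 4.58 to 13.8 in CPB (2.84 ± 0.73, SE; edgeR adjusted p = 0.00909). Snx31 moved the other way, from 3.08 ± 4.08 CPM to 0.276 ± 0.231 (SD, n = 4; log2 change -3.41, edgeR adjusted p = 0.0499), with sham values that differed widely.

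**Figure D3:**
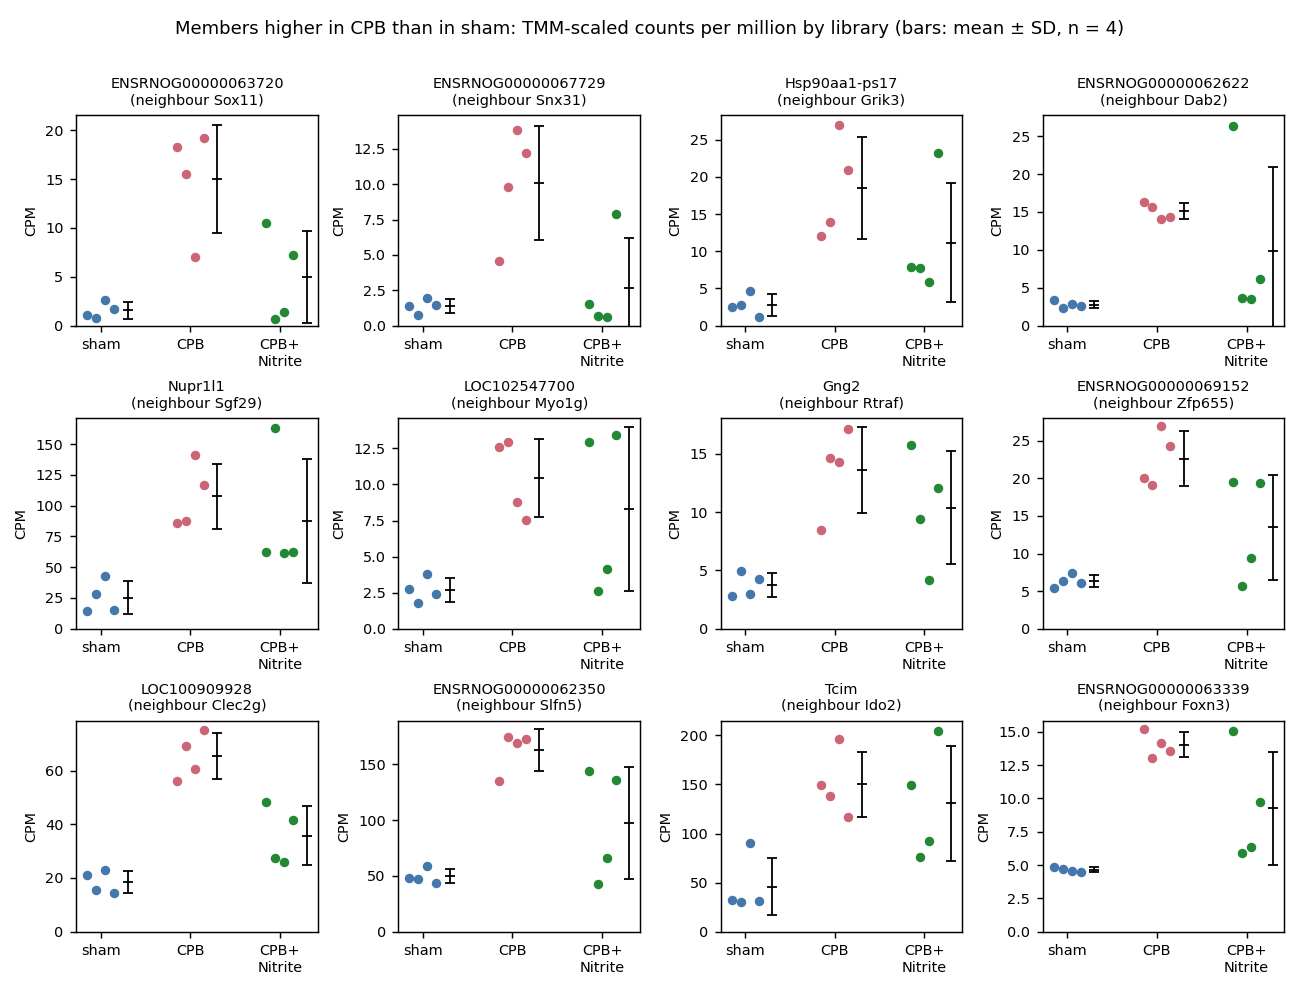
TMM-scaled CPM (vertical axis) of the 12 members with the highest log2 change in CPB, by library, with the mean and SD of each group (arms below 0 are cut at 0). All 4 CPB libraries lie above the 4 sham libraries in every panel, which the choice of members required.

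Among the decreases, the lowest change was that of ENSRNOG00000067412 (chr3:22726862-22730706), 8953 bases past Olfml2a, an extracellular matrix protein gene. It was at 17.1, 16.6, 16.5 and 19.2 CPM in sham, 1.54, 2.75, 0.793 and 0.469 in CPB and 0.380, 9.01, 5.05 and 8.58 in CPB+Nitrite. Sham libraries were all above the other 8 libraries (log2 change -3.62 ± 0.72, SE; edgeR adjusted p = 0.00287; Olfml2a -1.14). ENSRNOG00000071046 (chr7:61049021-61051109) and ENSRNOG00000068660 (chr7:61043675-61044761) share a neighbour, Slc16a7, which encodes the monocarboxylate transporter MCT2 and lies 58 and 6406 bases upstream on the same strand. The first stood at 9.09, 28.8, 18.7 and 30.8 CPM in sham and 2.37, 2.37, 2.61 and 2.48 in CPB, and the second at 19.5, 33.5, 23.1 and 20.6 and 4.19, 2.16, 2.61 and 2.68. Both had no overlap, and fell by 3.15 ± 0.51 and 3.04 ± 0.41 (SE; edgeR adjusted p = 0.00127 and 0.000968), while Slc16a7 fell by 2.09. They are not independent observations.

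For 4 of the leading decreases the neighbour did not pass. ENSRNOG00000070902 (chr11:36990850-37051451), divergent from the serine protease gene Tmprss2 at 17135 bases, was at 37.9, 39.8, 31.7 and 33.8 CPM in sham, 4.62, 4.80, 4.87 and 4.62 in CPB and 5.20, 21.9, 31.3 and 7.78 in CPB+Nitrite. The CPB libraries lay within 4.62 to 4.87 CPM, far below every sham library (-2.92 ± 0.45, SE; edgeR adjusted p = 0.00114), and Tmprss2 did not pass (-0.44, edgeR adjusted p = 0.0657). ENSRNOG00000066647 (chr1:124050896-124068487), divergent from Nr2f2, the COUP-TFII nuclear receptor gene, fell by 2.25 ± 0.38 (SE) and Nr2f2 did not pass (-0.35, edgeR adjusted p = 0.212). ENSRNOG00000067207 (chr7:122821943-122826368), 328 bases from the start of the kinase gene Lrrk2, fell by 2.17 ± 0.50 (SE) and Lrrk2 did not pass (-0.31, edgeR adjusted p = 0.358). ENSRNOG00000067772 (chr16:29566454-29601587), divergent from the kynurenine aminotransferase gene Aadat, fell by 1.37 ± 0.36 (SE) and Aadat did not pass (-0.50, edgeR adjusted p = 0.0568). For these 3 pairs and the Tmprss2 pair, the difference between member and neighbour was not tested.

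For 3 further leading decreases the neighbour fell too. ENSRNOG00000068440 (chr1:53488407-53559556), upstream of Smok2a, was at 26.5, 80.5, 91.9 and 50.9 CPM in sham, 3.12, 2.59, 7.25 and 8.57 in CPB and 10, 2.13, 7.64 and 11.1 in CPB+Nitrite. The 8 libraries after bypass were all below the 4 sham libraries (-3.55 ± 0.56, SE; edgeR adjusted p = 0.00125; Smok2a -3.38). ENSRNOG00000070425 (chr7:119939070-119945528), upstream of the kinase gene Pim3, was at 49.0, 65.7, 94.1 and 86.5 CPM in sham and 7.15, 5.02, 10.2 and 11.2 in CPB (-3.14 ± 0.89, SE; edgeR adjusted p = 0.0144; Pim3 -0.86). ENSRNOG00000066282 (chr6:123705846-123712737), 770 bases past Clmn, was at 197, 184, 204 and 275 CPM in sham and 62.7, 61.7, 80.0 and 79.6 in CPB (-1.60 ± 0.32, SE; edgeR adjusted p = 0.00284; Clmn -1.17).

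**Figure D4:**
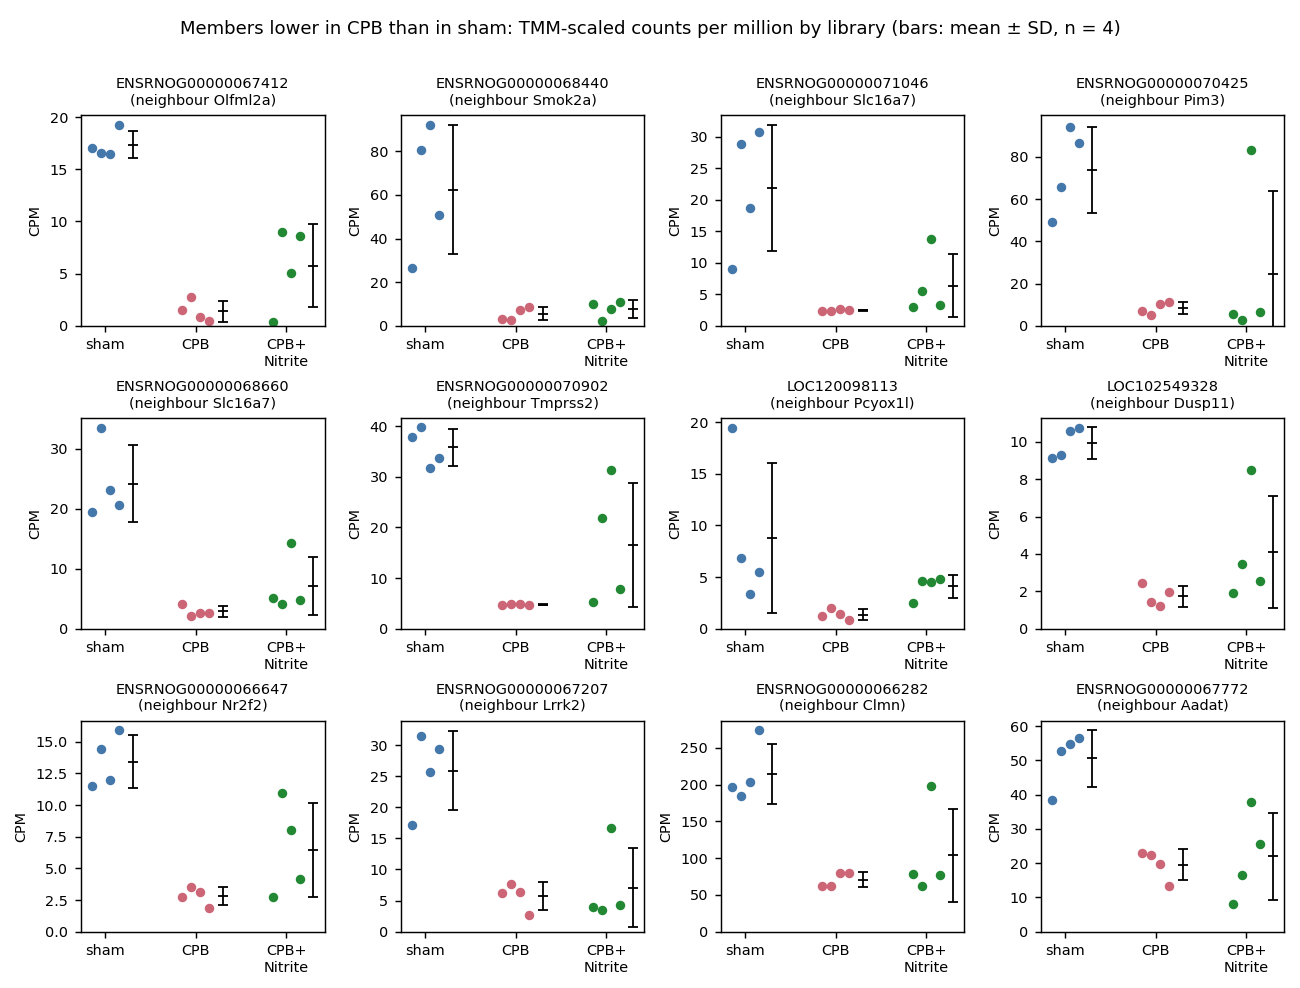
TMM-scaled CPM (vertical axis) of the 12 members with the lowest log2 change in CPB, by library, with the mean and SD of each group (arms below 0 are cut at 0). All 4 CPB libraries lie below the 4 sham libraries in every panel, which the choice of members required.

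The 6 members with the highest mean scaled count, a value that grows with transcript length, were mostly coding by name. Gpx3 (chr10:39028570-39037035) was at 9113, 6749, 9109 and 8316 CPM in sham, 7776, 9006, 8269 and 6213 in CPB and 11669.8, 10558, 6703 and 7776 in CPB+Nitrite, with groups that overlap (-0.09 ± 0.21, SE; edgeR adjusted p = 0.748). Cdc42se1, a small effector of CDC42, was 128 ± 32.4 CPM in sham and 199 ± 26.0 in CPB (0.63 ± 0.20, SE; edgeR adjusted p = 0.0212), with groups that overlap. Another member, ENSRNOG00000071119, overlaps it on the opposite strand, at 4.25 to 12.1 CPM by library where Cdc42se1 was at 106 to 235, and whether counting separated the strands is not given in the sources used here. Atp5mc1 fell by 0.44 ± 0.16 (SE; edgeR adjusted p = 0.0369), from 197 ± 31.0 to 145 ± 19.6 CPM, with overlapping groups. Mafk (chr12:14832249-14858888) was at 49.9, 42.8, 78.4 and 66.5 CPM in sham, 155, 186, 161 and 200 in CPB and 169, 107, 106 and 257 in CPB+Nitrite, all 8 above every sham library (1.56 ± 0.28, SE; edgeR adjusted p = 0.00197). ENSRNOG00000065096, 1128 bases past the carbohydrate-binding protein gene Mlec, did not pass (200 ± 11.3 CPM in sham, 159 ± 15.8 in CPB, edgeR adjusted p = 0.119), and ENSRNOG00000066282 is the member past Clmn.

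Whether members and neighbours moved together was described pair by pair, from the same libraries and the same fit. Of the 170 members without a coding name, 100 downstream members had a tested neighbour: 83 had the same sign, 28 were called in the same direction as their neighbour, 0 in opposite directions, 7 were called without it and it was called without them in 14. Pearson's r of the log2 changes across these 100 pairs was 0.85. Of 22 divergent pairs 14 had the same sign, 3 were called in the same and 2 in opposite directions, and of 27 upstream pairs 16, 4 and 3. Of 12 convergent pairs 8 had the same sign and 3 were called in the same and 0 in opposite directions. The r values for upstream, divergent and convergent pairs were 0.17, 0.45 and 0.64. The closest match in direction was thus in the downstream, same-strand pairs. Within 1000 bases of the 3' end, 38 of 48 pairs had the same sign.

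**Figure D5:**
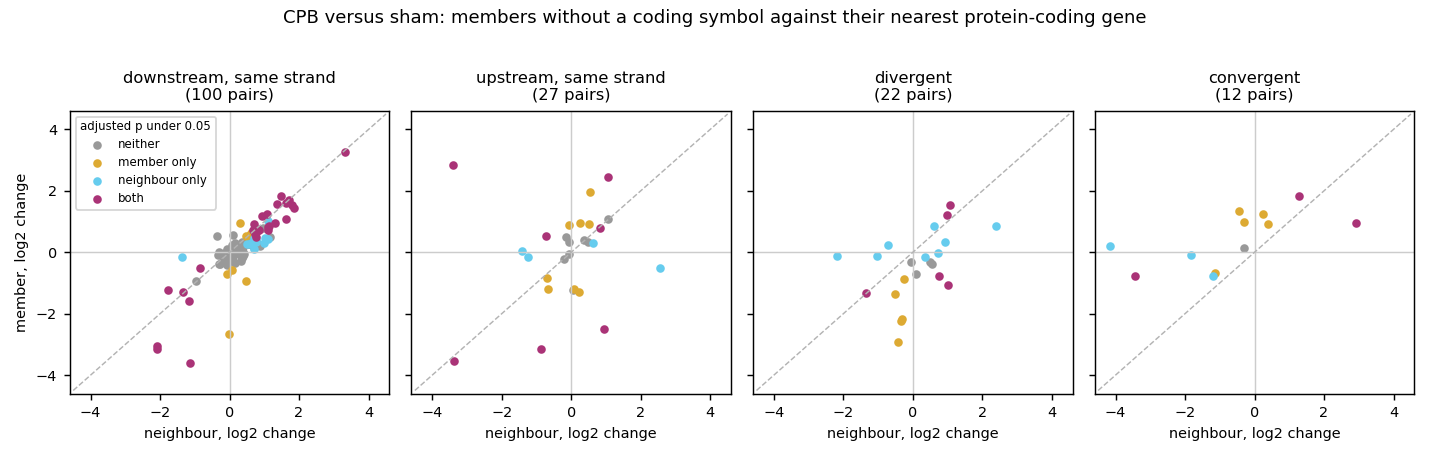
Log2 change in CPB against sham of each member without a coding name (vertical axis) against that of its nearest protein-coding gene (horizontal axis), by position; the dashed line marks equal change and colours mark which of the pair passed. Downstream pairs follow the line (r = 0.85), upstream pairs spread from it (r = 0.17).

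Genes of RNA decay, of the nuclear exosome and of paraspeckles, nuclear bodies built on a long noncoding RNA, were read from 3 lists. Of 16 nonsense-mediated decay factors, 8 rose in CPB and 0 fell, with a median log2 change of 0.48 against -0.05 for all genes. Among them Xrn1 rose by 0.75, Casc3 by 0.71 and Upf1 by 0.69 on the log2 scale. Of 18 nuclear exosome and turnover genes 7 rose and 1 fell, among them Mettl16 (0.83), Exosc1 (0.66), Rbm7 (0.58) and Exosc3 (0.46). Of 14 paraspeckle proteins tested 5 rose and 1 fell, with Sfpq at 0.94, Tardbp at 0.84 and Rbm14 at 0.73 and Rbmx at -0.94. The exosome and paraspeckle lists had median log2 changes of 0.21 and 0.25. With 43.2% of all genes called, the called counts of the 3 lists, 8 of 16, 8 of 18 and 6 of 14, lay near the share of all genes.

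CPB+Nitrite against CPB asks whether nitrite altered the response. No member passed the test, against 0.0% of all genes tested, and the smallest adjusted p among members was 0.0576. An unadjusted p under 0.05 was found for 39 members (19.3%) against 29.4% of all genes. DESeq2 called 20, 12 higher and 8 lower, limma voom called 0, and edgeR without CPB+Nitrite 1 called 33, 13 higher and 20 lower. The share of all genes called in these fits is not given here, so their counts are no result about the members. Groups did not overlap for 4 members higher and 12 lower (7.92%), against 12.7% of all genes. The members nearest to the limit were ENSRNOG00000070902, with a log2 difference of 1.80 ± 0.44 (SE), and LOC100909928, with -0.87 ± 0.22 (SE; edgeR adjusted p = 0.0584). The latter had CPB+Nitrite values of 48.3, 27.3, 25.8 and 41.6 CPM, all below CPB. Near the subunit gene of NF-kappaB, Rel, ENSRNOG00000070904 was at 10.1, 11.5, 10.7 and 11.8 CPM in CPB and 7.73, 5.79, 5.68 and 7.2 in CPB+Nitrite, with no overlap (-0.74 ± 0.23, SE; edgeR adjusted p = 0.0754). CPB+Nitrite values of Selenow were 21.1, 66.2, 14.3 and 24.8 CPM, against 10.7 to 14.7 in CPB (1.31 ± 0.40, SE; edgeR adjusted p = 0.0724), and 66.2 was that of library 2. ENSRNOG00000066647 and ENSRNOG00000068660 had differences of 1.19 and 1.27 (edgeR adjusted p = 0.0754 and 0.0730).

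CPB+Nitrite against sham asks which genes differed from sham when nitrite was given. In the same test 18 members passed, 15 higher and 3 lower (8.91%), against 4.81% of all genes tested. Groups did not overlap for 18 members higher and 14 lower (15.8%), against 11.5%. Among all genes with a mean of at least 100, 5.56% were called and 12.1% did not overlap. For all 567 genes of the biotype tested the shares were 4.41% and 15.2%. With a coding name 5 of 32 members passed (15.6%), and without one 13 of 170 (7.65%). The sham libraries are those of the first comparison, so the counts of both comparisons rest on them. The counts rest on single libraries: 0 members passed without sham 1, sham 2, sham 4, CPB+Nitrite 1 or CPB+Nitrite 4 (49 to 60 had an unadjusted p under 0.05), 3 to 7 without 1 of the 4 CPB libraries, 34 without CPB+Nitrite 2 and 53 without CPB+Nitrite 3. DESeq2 called 39 and limma voom 50. The shares of all genes called in these other fits are not given here, so the counts are not set against them. In a fit of only these 2 groups 0 passed, and 55 members had p under 0.05 before adjustment. With the replicate number as a block 0 passed as well, and 63 did before adjustment, so every call named next was lost there. Among those that passed, Mafk had a log2 difference of 1.43 ± 0.28 (SE; edgeR adjusted p = 0.0289), Nupr1 of 1.80, Hsp90aa1-ps17 of 1.99, Gng2 of 1.47, Tcim of 1.51 and Hilpda, a lipid-droplet protein gene, of 1.40. ENSRNOG00000065786, 2215 bases past Tead4, a Hippo pathway transcription factor gene, was at 1.75, 1.89, 3.07 and 2.76 CPM in sham and 8.66, 5.28, 5.09 and 8.85 in CPB+Nitrite (1.56 ± 0.27, SE; edgeR adjusted p = 0.0262). ENSRNOG00000062648, convergent with Prrx2, was at 43.1, 23.2, 37.0 and 18.4 CPM and 102, 100.2, 48.9 and 95.4 (1.51 ± 0.29, SE; edgeR adjusted p = 0.0287). LOC120098269 was at 13.9, 10.9, 11.7 and 8.80 CPM and 26.3, 37.5, 15.1 and 31.7 (1.29 ± 0.25, SE; edgeR adjusted p = 0.0287). ENSRNOG00000068440, at 10, 2.13, 7.64 and 11.1 CPM in CPB+Nitrite, was lower by 3.02 ± 0.55 (SE; edgeR adjusted p = 0.0262), and ENSRNOG00000068660 by 1.77, or 2.37 without CPB+Nitrite 3. None of these groups of 4 overlapped except those of Gng2, Tcim and Hilpda.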

How the data were processed

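Rat kidney RNA was measured in 12 libraries, 4 each of sham, CPB and CPB+Nitrite. A pair of tables was used. The first holds the authors' estimated counts per gene, deposited as numbers that need not be whole; the other holds the same counts deposited as a signal scaled by 1 factor per library, with gene biotype, position and strand on mRatBN7.2. The submitters' processing notes name bcl2fastq 2.19, cutadapt 1.18, Salmon 1.2.1 and R 3.5.1; whether counting used strand, how ribosomal RNA was removed and how the factors were set are not given in the sources used here. The library kit keeps strand, per the labels' protocols.

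Members are rows of biotype lncRNA with a scaled mean of at least 100. The members and the gene lists were chosen with earlier results of these data known. Estimated counts were rounded, and 14664 genes were kept by filterByExpr (minimum count 10) and scaled by TMM. They were fitted in edgeR 4.0.16 (glmQLFit, glmQLFTest, all 12 libraries, 1 estimate of the spread). Benjamini-Hochberg adjustment was over all genes tested, with a threshold of 0.05, two-sided. The fit was also run on simulated data. Those counts were drawn from the means and spreads of the same fit, so the run lends the calls no support. The alternatives used DESeq2 1.42.0 and limma 3.58.1 (voom). Groups do not overlap where every library of 1 lies above every library of the other. The nearest protein-coding gene is that with the smallest gap in the same table. Named genes are the 12 highest and 12 lowest log2 changes in CPB against sham among members past the threshold without overlap, the 6 highest means, the 6 smallest p in each nitrite comparison, 3 members on each side of the limit, and up to 4 genes of each turnover list. RefSeq names and promoters are of GRCr8, so no coordinates of that build other than the promoters' own are printed.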

Additional observations from a re-analysis of the deposited data

Results flagged for a closer look

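In a group of 4 libraries, a value was marked where its gap to the nearest other library exceeded Dixon's 95% critical value as a share of the group's range. Of 111 groups looked at (37 named members in 3 groups), 13 were marked; chance marks about 1 in 20 groups. In CPB+Nitrite, library 3 was highest for ENSRNOG00000070425 (83.5 CPM, the others 2.78 to 6.36), ENSRNOG00000066282 (199, the others 61.7 to 78.9), ENSRNOG00000067207 (16.7, the others 3.44 to 4.36) and ENSRNOG00000068660 (14.4, the others 4.10 to 5.11), 4 members lower in CPB than in sham. The same library was lowest for ENSRNOG00000062648 (48.9, the others 95.4 to 102).

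Library 4 of CPB+Nitrite was highest for Hsp90aa1-ps17 (23.2, the others 5.88 to 7.86) and ENSRNOG00000067729 (7.87, the others 0.637 to 1.56). Library 1 was highest for ENSRNOG00000062622 (26.4, the others 3.48 to 6.22) and lowest for Carmn, LOC120098113 (2.45, the others 4.56 to 4.80), and library 2 was highest for Nupr1l1 (163, the others 61.9 to 62.7). In CPB, library 1 was lowest for ENSRNOG00000062350 (135, the others 169 to 175) and highest for ENSRNOG00000069313 (7.15, the others 4.19 to 4.43). In sham, library 3 was highest for Tcim (90.0, the others 30.3 to 32.4).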

How the results depend on the processing

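Each result was computed again under 21 settings (other scaling, filters, tools, fits, and each library left out) and 3 other membership limits; leaving out members with a coding name was chosen after seeing the data. The count of members called in CPB against sham ran from 61 to 107 without 1 library and from 63 to 124 otherwise, and 61 to 88 of the 88 calls were kept, all in the same direction. In CPB+Nitrite against CPB the count was 0 except in DESeq2 (20) and without CPB+Nitrite 1 (33), so 0 to 33 without 1 library. In CPB+Nitrite against sham (18) it was 11 with library totals, 0 with 2 groups alone (55 with an unadjusted p under 0.05), 39 in DESeq2, 50 in limma voom, and 0 to 53 without 1 library. The cause was not tested, and the shares of all genes called in these settings are not given here. All 24 leading calls in CPB against sham held in each of the edgeR, DESeq2 and limma settings run. Gpx3, not called, turned sign in limma voom (log2 change 0.0324) and without CPB replicate 4 (0.00774), and was -0.18 to 0.00774 without 1 library. Of 860 checks of named genes 785 gave the same call, 57 lost it, 16 gained it and 2 turned sign.

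Whether the replicate numbers pair the libraries cannot be settled with 4 libraries per group. Same-numbered correlations of deviations ran from -0.11 to 0.38, and 3 of 12 passed 0.1. With the number as a replicate block 90 members were called in CPB against sham, 0 in CPB+Nitrite against CPB and 0 in CPB+Nitrite against sham (47 and 63 with an unadjusted p under 0.05); of 4 libraries 2, 0 and 1 correlated best with their own number.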

Other observations

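Members overlapped each other on opposite strands in 2 pairs: ENSRNOG00000067610 (chr10:39035340-39036696) inside Gpx3, and ENSRNOG00000071119 with Cdc42se1. Reads of such a pair cannot be told apart without strand. The level of ENSRNOG00000067610 was 0.199% to 0.371% of that of Gpx3 across the 12 libraries, with a median of 0.298%.

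The 2 largest log2 differences in CPB+Nitrite against CPB were of members picked after their values were seen, and neither passed. Sptssb, a subunit of serine palmitoyltransferase in sphingolipid synthesis, was at 0.909, 0, 0.397 and 0.804 CPM in CPB and 17.9, 21.4, 1.03 and 1.73 in CPB+Nitrite, and at 19, 5.91, 0.940 and 0.0967 in sham (4.29, edgeR adjusted p = 0.0811). The sum of 6 urothelial markers, without TMM scaling, was 6.25, 0.522, 1.06 and 4.93 CPM in the same CPB libraries. It was 108, 15.6, 8.97 and 2.50 in CPB+Nitrite and 175, 32.5, 5.94 and 0.991 in sham, with no marker at 0 in all 12 libraries. Its part in the Sptssb values was not tested. ENSRNOG00000069588, upstream of Ralgapb, was at 5.18, 7.72, 17.7 and 10.7 CPM in CPB and 2.96, 140, 18.2 and 57.4 in CPB+Nitrite (2.41, edgeR adjusted p = 0.0963).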
